A study of Mus musculus with 6 samples.

Results

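To determine which H3K27me3 sites were called in control granulosa cells (GCs) and in no cyclophosphamide (CTX)-treated GCs, the peak lists of 6 CUT&Tag libraries were merged into regions. A region was taken as PBS-only when peaks of all 3 PBS libraries overlapped it and no peak of the 3 CTX libraries did. There were 204 such regions among 12430, which is 1.64% of all regions. They were selected on these calls, so their presence in the PBS lists and absence from the CTX lists is a description and was given no test. The control group was juvenile female ICR mice primed with PMSG and then injected intraperitoneally with PBS. The CTX-treated group received the same PMSG priming and a single CTX injection in place of PBS. GCs were collected 6 h after the injection, and the GCs of 3 mice were pooled for each library, so differences between mice within a pool are not seen.

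H3K27me3 is the trimethylation of lysine 27 on histone H3. Polycomb repressive complex 2 writes it through its catalytic subunit EZH2 or EZH1, and readers in Polycomb repressive complex 1 bind it. It is known for spreading over the promoters of developmental regulators that a cell type keeps silent, where CpG-rich sequence recruits the complexes. CUT&Tag maps it by tethering a Tn5 transposase to an antibody against the mark.

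Sequence from 7 of the PBS-only regions is shown because the regions differed in the CpG content of the sequence and in the presence of other peaks around it. Each window holds the 150 bases around the strongest PBS summit on the + strand of GRCm38 (mm10), read from the RefSeq assembly, with every CpG in capitals. The 7 windows were chosen after their values were seen. The first 4 came from the members with the highest read pileup, at promoters of transcription factors with other peaks nearby. The Olig2 and Foxl1 windows lay in coding exons, the Pax7 window upstream of the annotated gene, and the Nkx2-5 window in an intron of an annotated transcript.
Olig2 window, chr16:91226994-91227143: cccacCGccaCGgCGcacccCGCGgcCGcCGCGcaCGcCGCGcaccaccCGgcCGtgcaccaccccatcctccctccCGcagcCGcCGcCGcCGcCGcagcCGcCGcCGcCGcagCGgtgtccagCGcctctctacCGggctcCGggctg
Pax7 window, chr4:139834030-139834179: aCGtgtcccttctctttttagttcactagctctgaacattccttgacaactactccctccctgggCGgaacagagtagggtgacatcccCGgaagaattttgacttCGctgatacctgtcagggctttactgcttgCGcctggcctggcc
Foxl1 window, chr8:121127989-121128138: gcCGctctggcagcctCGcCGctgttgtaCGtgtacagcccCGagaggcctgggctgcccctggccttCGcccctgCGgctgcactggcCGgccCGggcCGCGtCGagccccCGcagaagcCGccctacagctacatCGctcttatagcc
Nkx2-5 window, chr17:26842299-26842448: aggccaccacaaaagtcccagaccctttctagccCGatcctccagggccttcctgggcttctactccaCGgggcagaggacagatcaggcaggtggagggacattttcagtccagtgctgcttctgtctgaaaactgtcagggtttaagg
The next 2 windows came from isolated promoter regions with no other peak of any library within 10 kb. The Dpp6 window lay in an exon without coding annotation, and the Frem2 window lay in a coding exon. The last window lay in no annotated gene, 4846 bp upstream of the long noncoding RNA gene Gm26927.
Dpp6 window, chr5:27049819-27049968: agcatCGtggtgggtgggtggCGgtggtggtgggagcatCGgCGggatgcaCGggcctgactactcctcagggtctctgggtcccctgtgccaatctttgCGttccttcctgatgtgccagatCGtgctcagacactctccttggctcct
Frem2 window, chr3:53656369-53656518: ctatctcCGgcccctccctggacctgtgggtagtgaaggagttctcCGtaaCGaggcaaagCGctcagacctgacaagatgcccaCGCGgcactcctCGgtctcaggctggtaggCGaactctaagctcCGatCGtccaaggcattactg
Gm26927 window, chr13:84344884-84345033: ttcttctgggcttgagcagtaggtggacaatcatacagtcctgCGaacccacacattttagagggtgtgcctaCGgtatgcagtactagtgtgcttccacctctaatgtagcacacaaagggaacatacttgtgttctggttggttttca
The Olig2 window held 27 CpGs and the Foxl1 window 15, whereas the Nkx2-5 window held 2. The Frem2, Dpp6 and Pax7 windows held 10, 7 and 5, and the Gm26927 window held 2. A high CpG density was therefore not shared by these 7 windows.

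Depth, solved from the lists in reads per Mb of effective genome, ran from 1375 (replicate 2) to 1957 (replicate 1) among the PBS libraries and from 1118 (replicate 3) to 1630 (replicate 2) among the CTX libraries. The groups overlapped (1642 ± 294 against 1394 ± 258, SD, n = 3 each; two-sided exact permutation p = 0.500, smallest possible 0.1). Of 18 granulosa marker genes, Foxl2, Fshr and Cyp19a1 among them, 0 had a promoter peak in all 3 PBS libraries and 2 (Ccnd2 and Kitl) had a peak in any library. Few promoters carried such a peak in general, 1327 of the 22028 protein-coding genes in all 3 PBS libraries. The 18 markers are too few to set genes that GCs use apart from that share. Peaks in all 3 PBS libraries were found at 1 of 4 theca markers and at 0 of 11 oocyte, 0 of 5 immune and 0 of 4 endothelial markers. None of these 42 markers had a PBS-only region at its promoter.

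The 204 regions were a minor part of the H3K27me3 regions called in every control library. Regions present in all 3 PBS libraries numbered 2264, and 9.01% of them had no CTX call. A further 364 had a call in 1 CTX library, 565 in 2 and 1131 in all 3. In the opposite direction, 11 regions were called in all 3 CTX libraries and in no PBS library, which is 0.0885% of all regions. These 11 made up 0.876% of the 1255 regions present in all 3 CTX libraries. The lists were of unequal length. Replicates 1, 2 and 3 had 6378, 4244 and 5325 merged peaks for PBS and 4280, 4993 and 2916 for CTX. The count in the opposite direction was not repeated with lists of equal length. The number of PBS-only regions was 83 when every list was cut to the same number of strongest peaks and 103 when calls needed q of at most 1e-05.

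The edge of the rule was set by single calls. Among the 364 regions with a call in 1 CTX library, the call came from CTX replicate 2 in 250, from CTX replicate 1 in 89 and from CTX replicate 3 in 25. The deepest CTX library therefore supplied most of the calls that kept a region out. Regions with 2 PBS calls and no CTX call numbered 692, and PBS replicate 2, the shallowest PBS library, was the missing library in 431 of them. The members just inside the q-value threshold of 0.05, a −log10 q of about 1.3, were at Ky, a gene needed for muscle maintenance (weakest PBS −log10 q 1.3), near Id1, an inhibitor of helix-loop-helix factors (1.32), and near Ndufa4l2, a mitochondrial protein gene (1.33). Just outside lay regions at Gm47385 and near 3100002H09Rik, each kept out by a CTX replicate 1 call of 1.31, and at the Wnt receptor gene Fzd1, kept out by a CTX replicate 2 call of 1.31.

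Calls in the PBS libraries were weak to moderate at most members. The pileup, the number of extended reads over the strongest summit, had medians of 27, 23 and 27.5 in PBS replicates 1, 2 and 3, with ranges of 5 to 83, 7 to 69 and 8 to 76. The lowest pileup called in any library was 4. The median −log10 q was 4.33, 3.41 and 4.14, and the median rank of a member in its list stood at the 47.8th, 40.8th and 44.4th percentile, where the 100th is the strongest peak. All 3 calls reached q of at most 1e-05 in 10 members (4.90%, 95% Wilson interval 2.68% to 8.79%, counting error only).

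These 10 strongest calls lay at or near Olig2, Foxd1, S1pr5, Negr1, Dpp6, Ankrd63, Ccdc184, D130079A08Rik, Gm26709 and Gm26927. The highest weakest-library values were a −log10 q of 7.14 near Gm26927 and 7.11 at Foxd1. Near Gm26927 the pileups were 32, 29 and 31 reads in PBS replicates 1, 2 and 3 over local backgrounds of 7.66, 5.28 and 6.52. The 3 libraries were almost level there before any scaling for depth.

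The PBS libraries gave similar levels for most members after scaling to depth. The ratio of the highest to the lowest scaled pileup had a median of 1.31 and was over 2 in 9 members. Sspn, which encodes the sarcolemmal protein sarcospan, was the only member with a ratio over 3. Its pileups were 5, 62 and 39 reads, so PBS replicate 1 stood far below the other two libraries there. The region was chosen for mention after its values were seen.

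The 3 PBS peaks shared at least 1 base in 186 members (91.2%, 95% Wilson interval 86.5% to 94.3%). In the other 18 the peaks only adjoined or overlapped in pairs, as at Evx1, Itpripl2, Prrx2 and Hba-x. Common bases were found in 94.0% of regions with 3 PBS and 1 or 2 CTX libraries and in 98.7% of regions of all 6 libraries. The median common stretch was 195 bp in members, 234 bp in regions with some CTX calls and 536 bp in regions of all 6 libraries. A common stretch cannot be longer than the PBS peaks. Their median covered length in PBS replicate 2 was 292, 386 and 683 bp in these sets, so the order is not separate from peak width.

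Among the 10 members with the highest pileup, taken as the lowest scaled value over the PBS libraries, 5 lay at promoters of developmental transcription factors. Olig2 specifies oligodendrocyte and motor neuron precursors, and its region (chr16:91226800-91227154) lay 1612 bp downstream of the TSS. It held 81, 69 and 76 reads in PBS replicates 1, 2 and 3, over local backgrounds of 37.8, 26.8 and 32.2. The region at Pax7 (chr4:139833870-139834206), the paired box factor of muscle stem cells, lay 577 bp upstream of the TSS and held 82, 56 and 75 reads. At Foxl1 (chr8:121127900-121128174), a forkhead factor of gut mesenchyme, the counts were 70, 51 and 58. In all 3 regions the counts followed the order of depth, highest in PBS replicate 1 and lowest in PBS replicate 2.

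Nkx2-5 is a homeobox factor of the heart, and its region (chr17:26842180-26842689) held 77, 49 and 63 reads. Foxd1, a forkhead factor of kidney stroma, had a region across its TSS (chr13:98353891-98354578) with 75, 47 and 62 reads over backgrounds of 22.8, 14.7 and 21.7. It had the strongest weakest-library call of the 10, with a −log10 q of 7.11. The others of the 10 were at the noncoding gene Gm43377 (83, 54 and 70 reads), near Six2, a factor of nephron progenitors (73, 49 and 61), near Runx3, a runt factor of T cells and sensory neurons (73, 49 and 56), near Pou4f3, a hair cell factor of the inner ear (69, 44 and 54), and near Gm22646 (68, 44 and 66).

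**Figure D1:**
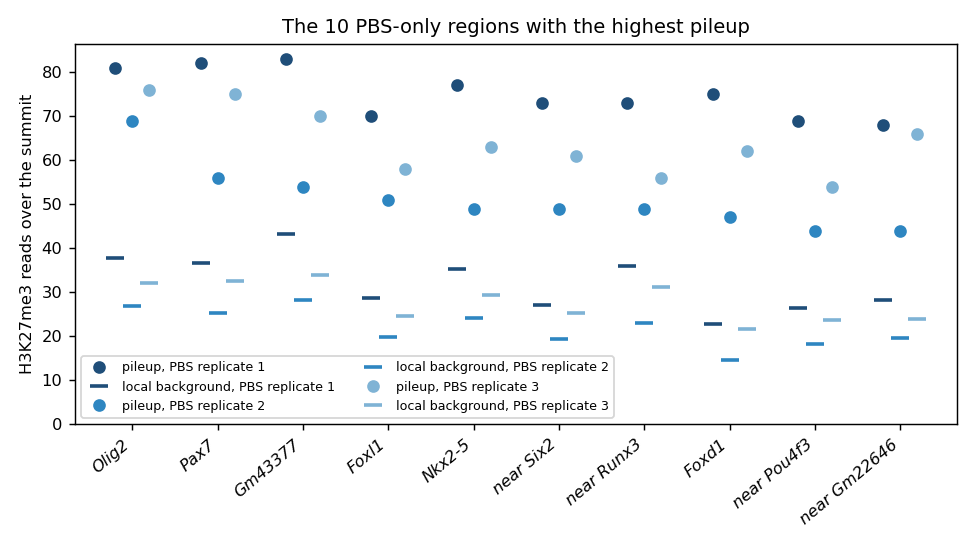
Read pileup at the summit (points) and local background (bars) in each PBS library for the 10 PBS-only regions with the highest scaled pileup, in extended reads. Every point lies above its own library's background, and backgrounds run from 14.7 reads in PBS replicate 2 at Foxd1 to 43.3 in PBS replicate 1 at Gm43377.

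The local background at these 10 regions was far above the genome-wide value of 0.391, 0.275 and 0.319 reads in PBS replicates 1, 2 and 3. Recovered backgrounds were multiples of 0.02 in the rows checked, which had lower pileups (4772 of 9083 rows in PBS replicate 1). One read extended by 200 bp gives that step over a 10 kb window, so those backgrounds measure the library's own reads around the summit. These 10 regions had pileups above the range checked. Read in the same way, a high value there shows many H3K27me3 reads around the called peak. At Gm43377 the pileup of 83 reads in PBS replicate 1 was under 2 times the background of 43.3 reads.

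Most members lay at promoters. Of the 204, 141 (69.1%, 95% Wilson interval 62.5% to 75.1%) overlapped the sequence within 2000 bp of a TSS, 9 lay in other exons, 14 in introns and 40 between genes. The share was 40.4% over all 12430 regions, but 69.3% in regions of 3 PBS and 1 or 2 CTX libraries and 72.3% in regions of all 6 libraries. The interval of the PBS-only regions held both of the latter shares. Summits lay a median of 1069 bp from the nearest TSS, and 82 of the 138 summits inside the window (59.4%) were downstream of it.

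Members were narrower than kept regions and similar in base composition. The median width was 527 bp, against 768 bp in regions with some CTX calls and 1160 bp in regions of all 6 libraries. This order follows in part from the rule. Widths are those of the merged peaks, so regions with CTX calls join peaks of more libraries. A wide region is also more easily met by a CTX peak and left out. The median GC content of 500 bp around the summit was 54.7%, against 55.8% and 57.0%. Windows with at least 50% GC and an observed to expected CpG ratio of at least 0.6 made up 22.1% of members (45 regions), 23.7% and 29.2%. Repeat-rich regions were rare, with 2 members (0.980%, Wilson interval 0.269% to 3.50%). The share was also low in regions with some CTX calls, at 2.26%, which lies inside that interval. It was 9.73% in regions of all 6 libraries and 15.5% in all regions.

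The 5 widest members were at Itpripl2 (1251 bp), Tmem178b (1202 bp), Tmem121b (1153 bp), Celf5, an RNA-binding protein gene (1122 bp), and Hba-x, the embryonic alpha-like globin gene (1055 bp). All 5 were at promoters. The Tmem121b region held 23, 24 and 20 reads in PBS replicates 1, 2 and 3, and the Hba-x region held 16, 15 and 16. Width therefore did not come with a high pileup in these examples, and at Itpripl2 and Hba-x the 3 PBS peaks shared no base.

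To determine which genes the members marked, TSS windows of 172 genes were found to overlap 141 members. They were 122 protein-coding and 50 other genes, 43 of them long noncoding or unclassified transcripts. A further question was whether the promoter had another peak in a CTX library. A gene is said below to keep a peak when a CTX peak overlapped the window of any of its annotated TSSs. No PBS peak at the same place was required, and the TSS could differ from the one at the member. Of the 172 genes, 82 had no peak of any CTX library within 2 kb of a TSS, 28 had a peak in 1 CTX library, 21 in 2 and 41 in all 3. So 90 genes (52.3%) had a PBS-only region and at the same time a CTX peak at a promoter of the gene. No share of other genes is set beside the 52.3%, so it is not read as particular to these genes. The share was 26.7% with peaks within 1000 bp joined and 30.7% at q of at most 1e-05, and the gene number was 101 at that threshold and 61 with equal peak numbers.

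Developmental transcription factors were the most frequent list, with 19 genes. They were 12.4% of the 153 factors whose promoters had a peak in each PBS library, where 9.19% of all such protein-coding genes (122 of 1327) had a PBS-only region. Another promoter peak in a CTX library was kept at 11 of the 19. Of the 5 with the highest pileups, Foxl1 and Nkx2-5 kept a promoter peak in all 3 CTX libraries, and Olig2, Pax7 and Foxd1 in none. Olig2, Pax7 and Foxd1 did have CTX peaks past the edge of the promoter window. At Olig2 a CTX replicate 1 peak began 2037 bp downstream of the TSS. At Pax7 peaks began 2673 bp downstream in CTX replicates 1 and 2 and 2684 bp downstream in CTX replicate 3. At Foxd1 a CTX replicate 2 peak lay at -2654 to -2454 bp from the TSS. The other factors without any CTX peak at the promoter were Evx1, Hoxc11, Gli1, Meis1 and Prrx2, named because they complete that group of 8.

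Gli1, the transcriptional effector of hedgehog signalling, held 15, 13 and 18 reads in PBS replicates 1, 2 and 3. Meis1, a cofactor of Hox proteins, held 19, 14 and 12, and Prrx2, a homeobox factor of mesenchyme, held 14, 11 and 14. These 3 regions were isolated. Their pileup was lower in each PBS library than at Evx1, a spinal interneuron factor (70, 43 and 50 reads), and the posterior Hox gene Hoxc11 (67, 47 and 49 reads). Within the same list, members thus covered both the upper and the lower end of the pileup range. Local backgrounds in PBS replicate 1 were at most 3.84 reads at the 3 isolated regions, 31.9 at Evx1 and 25.8 at Hoxc11. The order of pileup is therefore not read as an order of enrichment. At Evx1 the weakest −log10 q was 1.62. The 3 PBS peaks there shared no base, so its counts were not taken at 1 common summit.

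Ion channel genes contributed 6 of 53 (11.3%), and 5 of the 6 kept a CTX peak at the promoter. Kcnc1, which encodes a voltage-gated potassium channel, held 39, 30 and 33 reads and lay 195 bp from a region of all 6 libraries. The calcium channel genes Cacna1e (41, 27 and 44 reads), Cacna1g (38, 29 and 45) and Cacna2d2 (33, 23 and 23) lay 352, 798 and 152 bp from a region with a CTX call.

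Solute carriers contributed 6 of 33 (18.2%) and regulators of small G proteins 4 of 19 (21.1%), both with few genes. Slc35d3 (36, 34 and 34 reads), the noradrenaline transporter gene Slc6a2 (36, 24 and 27), the proline transporter gene Slc6a7 (24, 19 and 29) and Slc45a1 (18, 14 and 18) kept a peak in all 3 CTX libraries. The serotonin transporter gene Slc6a4 held 26, 15 and 23 reads, had no CTX promoter peak, and its nearest region with a CTX call was 322212 bp away. Among the G protein regulators, Arhgap45 (26, 23 and 24 reads), the Ras exchange factor gene Rasgrp4 (13, 11 and 20) and Rap1gap (16, 18 and 18) kept a peak in 1 CTX library. Rap1gap2, like Rap1gap an inhibitor of Rap1, held 22, 19 and 16 reads and kept one in all 3.

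Adhesion and guidance genes contributed 6 of 59 (10.2%). Ephb2, a receptor for ephrin-B ligands (44, 34 and 44 reads), and Plxna4, a semaphorin receptor (30, 26 and 30), had no CTX promoter peak. Cldn9 (38, 32 and 45 reads), a tight junction gene, kept 1, and Negr1 (38, 31 and 41) and the presynaptic gene Nrxn2 (35, 23 and 29) kept peaks in all 3 CTX libraries. Dpp6, which encodes an auxiliary subunit of potassium channels, had 2 members. The region near an upstream TSS (10, 13 and 16 reads) lay 191 bp from a region of all 6 libraries. The other (19, 18 and 32 reads, chr5:27049054-27050089) was isolated.

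Secreted ligands and antagonists contributed 3 of 60 (5.00%), the Wnt antagonist Sfrp2 (33, 27 and 39 reads), the Wnt agonist Rspo1 (43, 33 and 31) and the metabolic hormone Fgf21 (17, 22 and 23). All 3 kept a CTX promoter peak. Other G protein-coupled receptors contributed 3 of 45 (6.67%). S1pr5, a sphingosine-1-phosphate receptor (60, 59 and 54 reads), and Gpr50 (37, 22 and 30) kept a CTX peak, and the cannabinoid receptor gene Cnr1 (13, 15 and 13) did not. The neurotransmitter receptor list gave 2 of 35 (5.71%), the adrenergic receptor gene Adra2b (50, 30 and 37 reads) and Htra4, a serine protease gene that the list's name pattern had matched and that is no receptor. Fosl1, an AP-1 factor, was the 1 of 8 immediate early genes (21, 18 and 24 reads) and kept a peak in 1 CTX library. Members were at 0 of 5 p53 target and apoptosis genes with a PBS promoter peak. No granulosa or ribosomal protein gene had a promoter peak in all 3 PBS libraries.

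**Figure D2:**
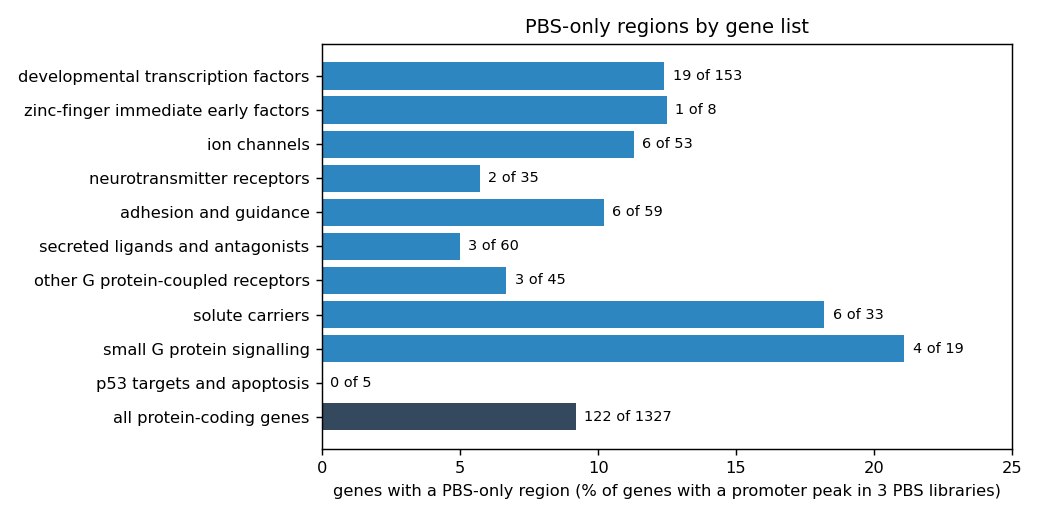
Share of genes with a PBS-only region at the promoter, in percent of the genes of each list whose promoters had a peak in each PBS library, with the counts beside each bar and all protein-coding genes as the dark bar. Shares run from 0 of 5 p53 and apoptosis genes to 4 of 19 small G protein genes, around 9.19% of all coding genes.

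To determine whether the members were the edges of larger domains or stood alone, the distance to the nearest other region was measured. A region with a call in at least 1 CTX library lay within 10 kb of 128 members (62.7%). It lay within 1 kb of 84 (41.2%, 95% Wilson interval 34.6% to 48.0%), between 1 and 10 kb in 44 (21.6%) and beyond 10 kb in 76 (37.3%). In regions of 3 PBS and 1 or 2 CTX libraries the same shares were 41.1%, 23.1% and 35.7%, and in regions of all 6 libraries 31.7%, 18.6% and 49.8%. In their distance to other CTX-called regions the PBS-only regions resembled the regions with partial CTX calls.

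The neighbour was often itself called in few CTX libraries. Of the 128 nearest CTX-called regions, 63 were called in 1 CTX library, 27 in 2 and 38 in 3, and 21 had no PBS call. The nearest CTX-called region was also present in all 3 PBS libraries in 53 cases. In 41 of these 53 its PBS pileup was higher than that of the member, and in 43 it was wider, with medians of 802 bp and 438 bp. The neighbour's width also takes in its CTX peaks. These neighbours had a CTX call and members had none, so the rule itself favours a higher PBS pileup in the neighbour. The median of the lowest scaled PBS pileup was 13.3 in members, 16.9 in regions with some CTX calls and 22.5 in regions of all 6 libraries. No conclusion is drawn from the 41. For position, neighbour and member were both measured from the TSS nearest to the member's summit, a choice that favours the member. The neighbour was nearer to that TSS in 53 of the 128 pairs and the member in 75, so no order is read from these counts.

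Regions of all 6 libraries were near fewer members. They lay within 10 kb of 50 members (24.5%, 95% Wilson interval 19.1% to 30.8%), within 500 bp of 22, and on both sides of 3. The member share was 14.5% with peaks within 1000 bp joined and 6.80% at q of at most 1e-05. The shares within 10 kb were 19.2% in regions with some CTX calls and 17.9% between regions of all 6 libraries. Members near Runx3 and near Gm37695 had the most, with 3 such regions within 10 kb each. The Runx3 region held 73, 49 and 56 reads in PBS replicates 1, 2 and 3, and the Gm37695 region held 60, 40 and 48.

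The regions of all 6 libraries were then compared by whether a member lay within 10 kb (55 regions) or not (1076 regions). Where a member was near, the median covered length per library averaged 764 ± 157 bp for PBS and 531 ± 154 bp for CTX (SD, n = 3 each), so CTX stood at 69.5% of PBS. Where none was near, it was 842 ± 135 and 566 ± 152 bp, or 67.3%. The median pileup scaled to 1000 reads per Mb was 29.6, 31.3 and 33.2 reads in PBS replicates 1, 2 and 3 and 23.7, 25.8 and 25.9 in the CTX replicates near a member (80.1%). It was 24.0, 24.7 and 27 against 20.9, 22.1 and 21.5 where none was near (85.2%). The groups overlapped in covered length and did not overlap in scaled pileup for either kind of region, and no test was made since these are the libraries whose calls chose the members.

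When regions of any library within 10 kb were linked into chains, 103 members (50.5%) were the outermost region of a chain, 63 (30.9%) lay inside one and 38 (18.6%) were isolated. Most of these chains were short, with a median over the members of 3 regions and 2.34 kb. Chains of at least 5 regions held 47 of the 204 members. In a chain of 2 regions both were counted as outermost, so this position does not show the edge of a large domain. The shares were 52.5%, 26.5% and 21% in regions with some CTX calls, and 44.7%, 21.4% and 33.9% in regions of all 6 libraries. Interior members had the highest median pileups (43, 34 and 43 reads in PBS replicates 1, 2 and 3), edges came next (27, 22 and 27) and isolated members were lowest (18.5, 14 and 16.5). Many linking regions were called in 1 library only. With regions of at least 2 libraries as neighbours, which was chosen after seeing the data, 67 members were isolated, 101 were edges and 36 were interior. The isolated share was 46.2% when peaks within 1000 bp were joined, 40.8% at q of at most 1e-05 and 10.8% with a link distance of 25 kb.

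**Figure D3:**
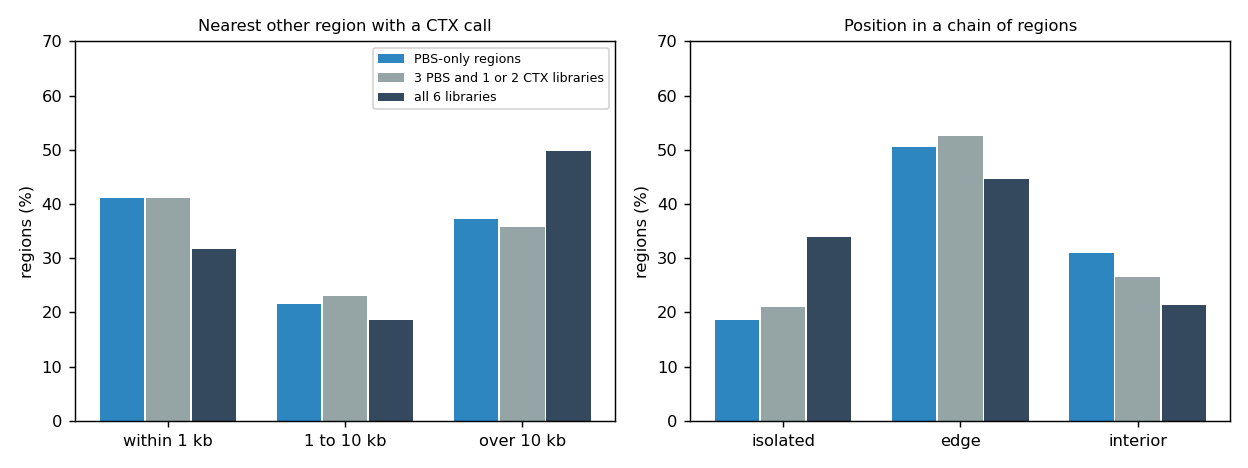
Distance to the nearest other region with a CTX call (left) and position in chains of regions linked within 10 kb (right), as percent of PBS-only regions, of regions of 3 PBS and 1 or 2 CTX libraries and of regions of all 6 libraries. Isolated regions are 18.6% of PBS-only regions and 33.9% of regions of all 6 libraries.

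The chains with 2 members, the highest number seen, numbered 5. At Olig2, 11 regions were linked over 21.4 kb (chr16:91211928-91233306), 4 of them with a CTX call and none present in all 6 libraries. The other member of this chain was near Gm49614 (63, 40 and 66 reads in PBS replicates 1, 2 and 3). At Foxd1, 6 regions spanned 21 kb (chr13:98350357-98371366) and 2 had a CTX call. Its members were the one across the TSS and one 8426 bp downstream (59, 36 and 47 reads).

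At B4galnt1, which encodes a ganglioside synthase, 8 regions spanned 19.9 kb and 1 had a CTX call. Its 2 members lay 550 and 1776 bp downstream of the TSS, with 47, 36 and 43 reads and 48, 34 and 48 reads. The chain at Celf5 and Gm16105 had 6 regions over 29.3 kb and no CTX call in any. The chain beside Pax2, a factor of kidney and eye development, held 9 regions over 39.0 kb, 3 with a CTX call and 1 of these in all 6 libraries.

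**Figure D4:**
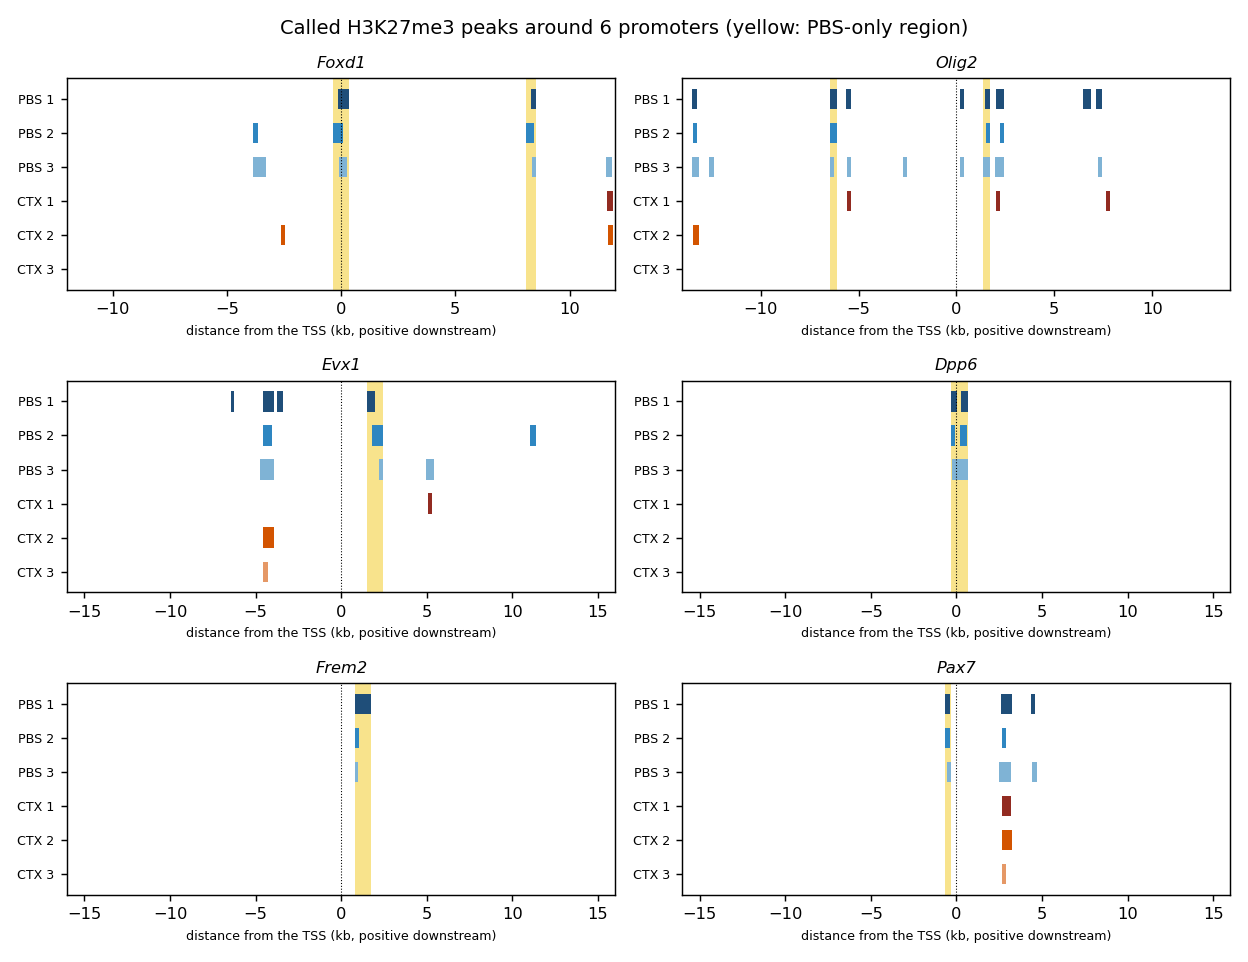
Called peaks in each of the 6 libraries (rows) against distance from the TSS in kb, positive in the direction of transcription, for 6 promoters, with PBS-only regions shaded. Foxd1, Olig2, Evx1 and Pax7 have CTX peaks elsewhere in the window, and Dpp6 and Frem2 have none.

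Of the 38 isolated members, 26 were at promoters and 17 had no CTX-called region within 100 kb. The following examples were chosen after their values were seen. The isolated Dpp6 region lay 231116 bp from the nearest region with a CTX call, and its −log10 q was 5.22, 5.86 and 13.6, the only isolated member at q of at most 1e-05 in all 3 PBS libraries. Frem2 encodes an extracellular matrix protein of basement membranes, and its region (chr3:53655604-53656577) held 18, 10 and 14 reads and lay 94531 bp from the nearest CTX-called region. The fatty acid transporter gene Slc27a2 (11, 12 and 14 reads) lay 751448 bp away.

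The level of reads around a member differed with the distance to the next CTX-called region, but not in the order of distance. Members within 1 kb of it had median local backgrounds of 10, 7.26 and 9.30 reads in PBS replicates 1, 2 and 3. Members between 1 and 10 kb had the highest values, 19.0, 13.5 and 16.6, and members beyond 10 kb the lowest, 4.44, 3.16 and 4.14. The median fold enrichment was 2.97, 3.03 and 3 within 1 kb, 2.58, 2.75 and 2.53 for 1 to 10 kb and 3.74, 3.82 and 3.6 beyond 10 kb. In each of the 3 libraries the class with the highest background had the lowest fold and the class with the lowest background the highest. This order is largely built in. The background is the denominator of the fold, and a call over a low background needs a higher fold to pass the threshold. No conclusion is drawn from it.

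Since the CTX lists hold no value where no peak was called, the pileup of a member in CTX GCs is not known, and the absence of a call does not show the absence of the mark. To set the calls beside depth, the mean PBS pileup and background of each member were scaled to the depth of each CTX library. The scaled values passed the lowest −log10 p called in CTX replicate 2 at all 204 members, in CTX replicate 1 at 202 and in CTX replicate 3 at 163 (79.9%, 95% Wilson interval 73.9% to 84.8%). In all, 163 members passed in 3 CTX libraries, 39 in 2 and 2 in 1. Passing was largely set by the selection, since the scaled values come from the PBS calls that chose the members. Every member had been called in PBS replicate 2 at 1375 reads per Mb. CTX replicates 1 and 2, at 1433 and 1630, were deeper, so no conclusion is drawn from their shares.

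The same scaling also passed more regions than were called within the control group. Of the 3241 regions called in PBS replicates 1 and 3, 96.1% passed at the depth of PBS replicate 2, and 71.2% of those were called there. In CTX replicate 2, 99.2% passed and 71.5% of those were called. The corresponding shares called were 61.8% in CTX replicate 1 and 50% in CTX replicate 3. A control library of low depth thus missed regions of the other 2 control libraries about as often as the deepest CTX library did.

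Without scaling, the 3241 regions of PBS replicates 1 and 3 were recovered to 69.9% in PBS replicate 2 (95% Wilson interval 68.3% to 71.4%), 60.8% in CTX replicate 1 (59.1% to 62.4%), 71.2% in CTX replicate 2 (69.6% to 72.7%) and 44.4% in CTX replicate 3 (42.7% to 46.1%). PBS replicate 2 was less deep than CTX replicate 1 and recovered more of them. The 2475 regions of PBS replicates 2 and 3 were recovered to 91.5% in PBS replicate 1, and to 70.2%, 80.0% and 53.3% in CTX replicates 1, 2 and 3. The 2584 regions of PBS replicates 1 and 2 were recovered to 87.6% in PBS replicate 3, and to 68.7%, 78.8% and 51.8%. PBS replicate 3, at 1595 reads per Mb, thus recovered more than CTX replicate 2, at 1630. The part of depth in the missing CTX calls at the 204 members was not tested.

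**Figure D5:**
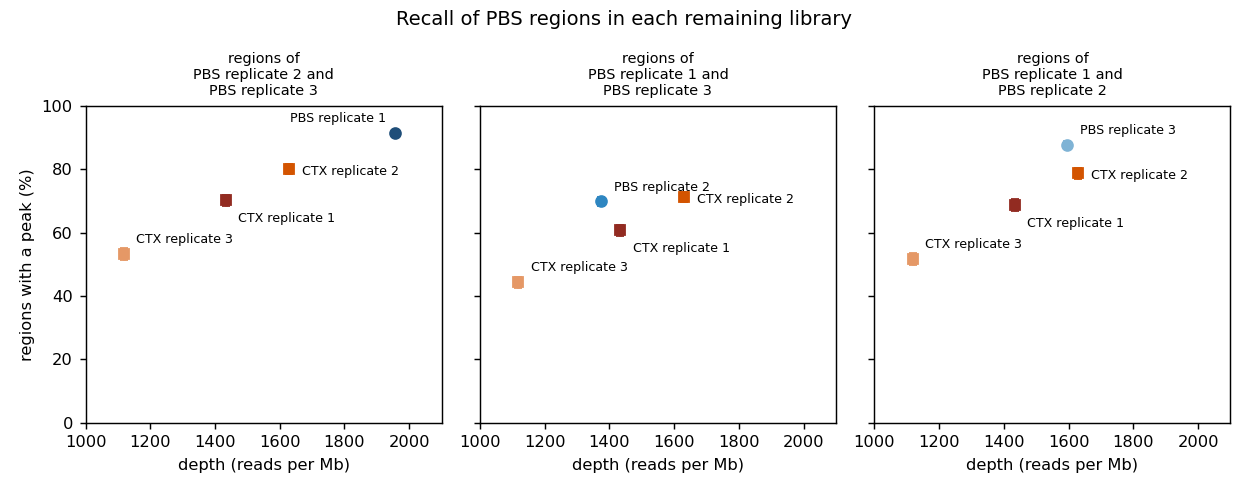
Percent of the regions called in a pair of PBS libraries that also had a peak in each remaining library, against the depth of that library in reads per Mb, with 95% Wilson intervals (smaller than most points). Recall rises with depth among the CTX libraries in each panel, and PBS replicates 1, 2 and 3 reach 91.5%, 69.9% and 87.6%.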

How the data were processed

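H3K27me3 CUT&Tag was performed on pooled GCs, with 3 PBS and 3 CTX libraries. Reads had been aligned to mm10 with BWA, uniquely mapped and de-duplicated reads kept, and peaks called per library with MACS2 (2.1.0) at a q-value threshold of 0.05. fastp, HOMER (4.9.1), bedtools and ChIPseeker are also named in the submitters' processing notes. A control library for peak calling is not given in the sources used here, nor is a spike-in. Each row of the deposited lists carries an integer score, a fold enrichment (a ratio of pileup to local background), and the −log10 p-value and −log10 q-value, all computed by the authors' peak caller. They are narrow peaks, whereas H3K27me3 forms broad domains, so a domain can be split into several peaks.

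Rows that overlapped or touched were merged in each list and then across lists, and presence needed 1 bp of overlap. At each summit, the fold and p were solved for a whole-number pileup with its background (99.8% to 99.9% of summits), and the most frequent floor of the background gave the depth. The recovery was tested on simulated data. Total read counts were not analysed here. Intervals beside shares of regions are 95% Wilson intervals, which cover counting error only. Regions within 2000 bp of a GENCODE M21 TSS (GRCm38) were counted as promoter regions, and neighbours were sought within 10 kb. Scripts used Python 3.11.15, pandas 2.3.3, scipy 1.17.1, pysam 0.24.0 and samtools 1.23.1.

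The named regions were the 10 with the highest lowest-library scaled pileup, up to 5 per gene list in that order, the 5 widest, the chains with the most members, the 3 nearest the threshold on either side and the 3 with the most regions of all 6 libraries nearby, and others are stated as chosen after their values were seen. Some of the regions that this rule selects are not reported here. The members and gene lists were chosen with earlier results of these data known. Regions are not replicates, so counts and shares were given no test, and the depth of the libraries was compared by a two-sided exact permutation test. The alternatives were a stricter q-value, equal peak numbers, joined peaks, repeats left out, a coverage minimum, other windows and distances, and each library left out.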

Additional observations from a re-analysis of the deposited data

How the results depend on the processing

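The 204 PBS-only regions became 103 with peaks of q at most 1e-05 only and 83 with equal peak numbers per library. Of the 103, 10 overlapped a PBS-only region as reported, since most of the others held a weaker CTX call, and of the 83, 39 did. With q of at most 1e-05, the promoter share was 76.7%, the share with a region of all 6 libraries within 10 kb 6.80%, the isolated share 40.8%, the gene number 101 and the share of genes with a CTX promoter peak 30.7%. With equal peak numbers, the promoter share was 61.4%, the isolated share 27.7%, the gene number 61 and the share with a CTX promoter peak 41.0%. With peaks within 1000 bp joined, the share near a region of all 6 libraries was 14.5%, the isolated share 46.2% and the share of genes with a CTX promoter peak 26.7%. A promoter window of 1000 bp gave 57.8% at promoters and 43.5% of genes with a CTX peak. A distance of 25 kb gave 32.8% near a region of all 6 libraries and 10.8% isolated, and neighbours of at least 2 libraries, chosen after seeing the data, gave 32.8% isolated. Leaving out a library moved the region number between 229 and 642 (330, 642 and 377 without PBS replicates 1, 2 and 3, and 469 without CTX replicate 2), since fewer libraries were then asked, and the gene number between 187 and 473 (473 and 287 without PBS replicates 2 and 3, 380 without CTX replicate 2). The shares then ran from 63.9% to 69.0% at promoters, 21.8% to 30.1% near a region of all 6 libraries, 17.3% to 23.6% isolated and 46.3% to 57.7% of genes with a CTX peak. The median GC kept within 54.2% to 56.8% under the alternatives run. The depth difference (CTX minus PBS) was -249 reads per Mb, with -382 to -91 when a library was left out. With the replicate number as a block, it was -249 (exact sign-flip p = 0.500, smallest possible 0.25). The numbers do not pair the libraries in the descriptions, so this is given for completeness. Pileups of 4 were the lowest called, so weaker regions could not be detected.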
